A study of Mus musculus with 16 samples.

Results

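Oc1 heterozygous mouse pancreata were set against control pancreata at embryonic day 15.5, with 3 Oc1 heterozygous and 4 control samples of the 16 in the series. Samples were taken by the genotype in their titles, and the comparison covers all 22869 gene symbols that were counted. The Oc1 heterozygotes (Oc1+/-) lack 1 copy of Oc1, the protein encoded by Onecut1. The other groups are 4 Pdx1 heterozygotes (Pdx1LacZ/+), which carry a lacZ allele at Pdx1, and 5 double heterozygotes (Pdx1LacZ/+;Oc1+/-), which carry both alleles. The controls are labelled only as control. Every group has the strain entry mixed background and the same age. RNA came from the dissected pancreas as a whole, so each library mixes epithelium, mesenchyme, nerves, vessels and blood. The labels do not say which exons the Oc1 allele lacks, whether the libraries come from separate litters, or the sex of the embryos. The p-values therefore measure the spread between these libraries, which may be partly technical.

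Onecut1 is a transcription factor of pancreatic progenitors. In mice that lack it, Neurog3 is not switched on properly and ducts form abnormally. Around this age the pancreatic epithelium divides into acinar cells at its tips and a trunk that gives rise to ducts and, through Neurog3, to endocrine cells. Acinar cells make digestive enzymes as inactive zymogens, fold them in the endoplasmic reticulum (ER) and store them in zymogen granules. Their identity depends on PTF1, a complex of Ptf1a, a partner E-protein and Rbpjl that binds the promoters of enzyme genes. Xbp1 and Bhlha15 enlarge the ER and the secretory machinery.

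All fold changes below, on the log2 scale as Oc1 heterozygous over control, are from the comparison table deposited by the authors. Beside them stands the authors' edgeR p-value after Benjamini-Hochberg adjustment, the false discovery rate (FDR). The table lists 2283 genes, those with an FDR under 0.1 together with a 1.5-fold change in at least 1 of its 5 comparisons. A gene was called higher or lower where the FDR was under 0.05 and the change 1.5-fold or more, and a gene that is not listed was taken as not called. Neither depths nor values of single libraries were analysed here, because the 16 columns of the count table carry flow cell, lane and index names that match no sample label. Levels per genotype are therefore derived: the mean count per 1e+06 reads (CPM) over all 16 libraries was split by the 3 fold changes over control and the group sizes. A derived level has no error and no test. CPM is not scaled by gene length. Levels of a gene are compared between genotypes, and any ranking or sum over genes is of reads and also reflects gene length.

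Among the 22869 genes, 1428 were called in the Oc1 heterozygotes, which is 6.24% of them. Of these, 836 rose (3.66%) and 592 fell (2.59%), by counts from the authors' deposited table. The called genes that rose had a median log2 fold change of 0.93, and 379 of them rose at least 2-fold and 101 at least 4-fold. Those that fell had a median of -0.86, and 222 fell at least 2-fold and 62 at least 4-fold. Among called genes, those with many reads were mostly higher: 226 of the higher and 49 of the lower genes had a mean log2 CPM of at least 6. This mean includes the Oc1 heterozygous libraries, where the higher genes have more reads. Of the 10 called genes with the highest mean level, 9 rose, and they include the lipase-related Pnliprp1, the chymotrypsinogen Ctrb1 and the carboxypeptidase Cpa1. The exception was Grb10, an imprinted growth factor receptor adaptor, which fell by 0.85 (the authors' deposited table, FDR = 1.7e-06).

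**Figure D1:**
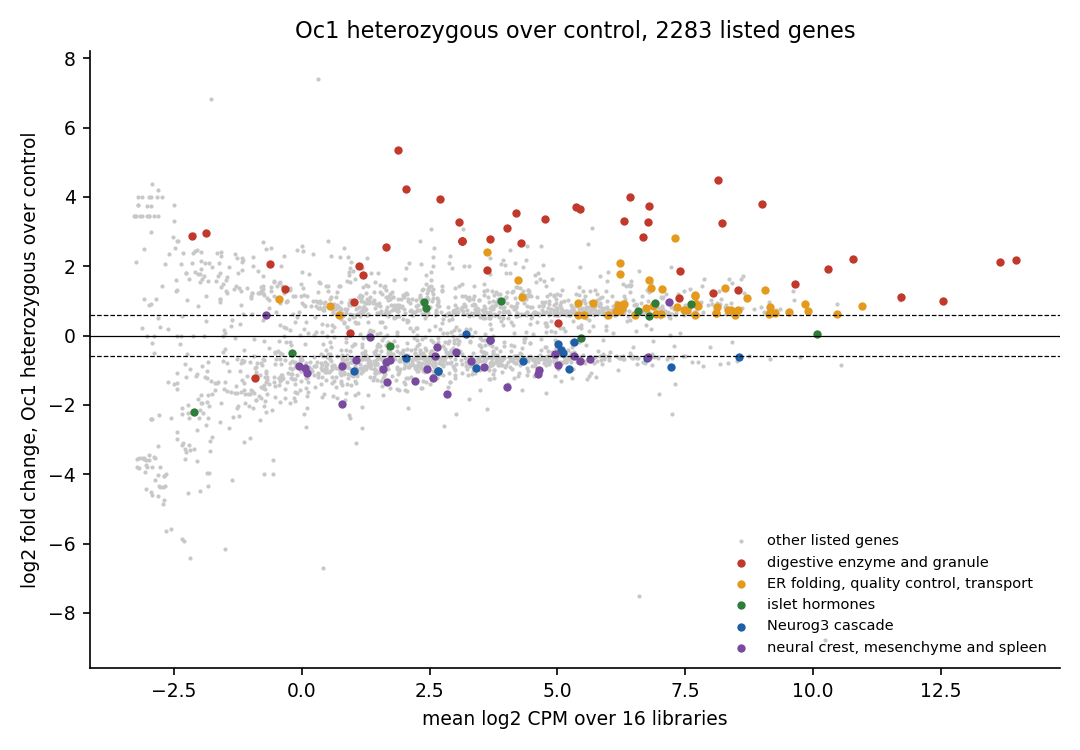
Each point is 1 of the 2283 listed genes. The horizontal axis is the mean log2 CPM over all 16 libraries and the vertical axis the log2 fold change of Oc1 heterozygous over control pancreata from the authors' deposited table. Dashed lines mark 1.5-fold. Digestive enzyme and granule genes (red) reach 5.36 and fill the upper right. All 55 listed ER genes (orange) lie above the upper line, and 54 of them were called. Most Neurog3 cascade, neural crest and mesenchyme genes (blue and purple) lie below 0.

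The gene whose copy is lost gave no call. Onecut1 stood at -0.48 in the authors' deposited table (FDR = 0.146), with a derived level of 22.8 CPM in Oc1 heterozygotes, 42.7 CPM in Pdx1 heterozygotes, 26.4 CPM in double heterozygotes and 31.8 CPM in controls. Against the Pdx1 heterozygotes, Onecut1 was 0.90 lower in the Oc1 heterozygotes on the log2 scale (the authors' deposited table, FDR = 0.00191). Its paralogue Onecut2 stood at -0.08 (the authors' deposited table, FDR = 1), and Onecut3 is not listed. Pdx1, the homeodomain factor needed for pancreas formation, stood at -0.12 (the authors' deposited table, FDR = 0.586). The labelled tissue carried its markers: in controls the derived level was 7235 CPM for the acinar gene Ctrb1, 59 CPM for Ptf1a and 143 CPM for Ins1.

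The 3 Oc1 heterozygous libraries also differed from control in sex-linked transcripts. Xist, the X inactivation transcript, was at -8.78, Tsix, antisense to it, at -7.51 and Ddx3y, of the Y chromosome, at 2.64 (the authors' deposited table, FDR = 0.00249, 4.98e-08 and 0.037). Without strand information, reads of Xist and Tsix cannot be told apart. Xist was at 4.31 CPM in Oc1 heterozygotes, 1382 CPM in Pdx1 heterozygotes, 1254 CPM in double heterozygotes and 1893 CPM in controls. The sexes of the embryos are not in the labels, so genotype and sex cannot be told apart here. On the X chromosome 37 of 1011 genes were called (3.66%), 12 higher and 25 lower, against 4.71% of genes on chromosome 13 and 9.08% on chromosome 3, the autosomes with the lowest and highest shares. Chromosomes were known for 22660 of the 22869 genes.

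The promoters of genes whose transcripts rose are shown first, for the enzyme and ER genes described next. They are RefSeq windows of the GRCm38.p6 build, each 300 bases long, with 250 bases before and 50 after the start of the gene, and 17292 of the 22869 counted genes had such a window. For the enzyme genes, capitals mark a PTF1-type pair: an E-box, CANNTG, and a TC-box, TTTCCC, separated by 2 to 6 or 12 to 16 bases, on either strand. The windows shown are those of Gm5771 (chr6:41392106-41392405, plus strand), Prss1 (chr6:41458680-41458979, plus strand), Ctrb1 (chr8:111690961-111691260, minus strand) and Cel (chr2:28563354-28563653, minus strand), each written 5′ to 3′ along its gene.
Gm5771: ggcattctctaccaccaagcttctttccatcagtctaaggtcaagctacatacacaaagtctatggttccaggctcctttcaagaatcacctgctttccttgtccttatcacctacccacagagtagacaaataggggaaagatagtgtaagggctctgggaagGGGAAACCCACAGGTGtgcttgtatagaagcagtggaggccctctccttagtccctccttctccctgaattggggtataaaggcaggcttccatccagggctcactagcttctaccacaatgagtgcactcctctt
Prss1: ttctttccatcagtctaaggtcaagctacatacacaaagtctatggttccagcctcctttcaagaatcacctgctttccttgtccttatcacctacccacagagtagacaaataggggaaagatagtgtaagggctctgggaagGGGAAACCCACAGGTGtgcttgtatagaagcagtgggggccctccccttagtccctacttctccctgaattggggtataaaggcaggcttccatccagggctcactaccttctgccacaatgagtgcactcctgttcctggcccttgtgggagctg
Ctrb1: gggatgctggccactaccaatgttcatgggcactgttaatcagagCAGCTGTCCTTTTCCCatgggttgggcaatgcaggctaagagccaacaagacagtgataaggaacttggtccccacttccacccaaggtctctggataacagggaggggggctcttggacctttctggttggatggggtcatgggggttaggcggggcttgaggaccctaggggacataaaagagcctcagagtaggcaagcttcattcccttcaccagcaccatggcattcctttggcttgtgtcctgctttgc
Cel: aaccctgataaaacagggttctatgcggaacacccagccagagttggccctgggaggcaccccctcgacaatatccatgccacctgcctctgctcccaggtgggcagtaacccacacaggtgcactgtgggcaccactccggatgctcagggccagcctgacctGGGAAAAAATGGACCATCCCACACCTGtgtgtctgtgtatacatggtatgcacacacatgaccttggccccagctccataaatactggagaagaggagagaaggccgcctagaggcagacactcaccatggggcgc
Gm5771 and Prss1, both trypsinogens, hold the same 16-base match, 70 and 90 bases before the start. Their transcripts rose by 3.53 and 3.32 (Gm5771 and Prss1; the authors' deposited table, FDR = 0.000123 and 6.88e-05). In Ctrb1 the match lies 189 bases before the start, and in Cel, the gene of the bile salt-activated lipase, 59 bases before it. The pair was found in 6 of the 30 digestive genes that rose and had a window (20%), namely these 4, the elastase Cela1 and Cpa1. Gm5771 and Prss1 are near copies of each other, so they are not 2 separate instances. Among all 40 digestive genes with a window, called or not, 6 held the pair (15%). It was found in 18 of 640 windows of all genes that rose (2.81%), in 8 of 426 windows of genes that fell (1.88%) and in 213 of all 17292 windows (1.23%).

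For the ER genes, capitals mark the ER stress element, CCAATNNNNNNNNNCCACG on either strand, to which ATF6 binds together with NF-Y. The 4 windows are those of Derl3 (chr10:75893148-75893447, plus strand), Ero1lb (chr13:12565633-12565932, plus strand, named Ero1b in RefSeq), Creld2 (chr15:88819396-88819695, plus strand) and Pdia6 (chr12:17266339-17266638, plus strand).
Derl3: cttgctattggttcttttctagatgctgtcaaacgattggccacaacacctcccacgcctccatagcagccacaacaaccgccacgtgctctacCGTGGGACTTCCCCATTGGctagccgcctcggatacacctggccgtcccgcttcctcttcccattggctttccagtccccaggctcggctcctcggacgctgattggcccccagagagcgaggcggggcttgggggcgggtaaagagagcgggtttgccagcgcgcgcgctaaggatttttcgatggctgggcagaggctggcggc
Ero1lb: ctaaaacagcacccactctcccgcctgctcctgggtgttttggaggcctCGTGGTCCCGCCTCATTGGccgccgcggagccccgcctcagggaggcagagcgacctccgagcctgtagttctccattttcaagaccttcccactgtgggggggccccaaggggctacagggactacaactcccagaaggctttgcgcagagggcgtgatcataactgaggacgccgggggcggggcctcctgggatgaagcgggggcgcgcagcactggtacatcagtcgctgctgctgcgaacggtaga
Creld2: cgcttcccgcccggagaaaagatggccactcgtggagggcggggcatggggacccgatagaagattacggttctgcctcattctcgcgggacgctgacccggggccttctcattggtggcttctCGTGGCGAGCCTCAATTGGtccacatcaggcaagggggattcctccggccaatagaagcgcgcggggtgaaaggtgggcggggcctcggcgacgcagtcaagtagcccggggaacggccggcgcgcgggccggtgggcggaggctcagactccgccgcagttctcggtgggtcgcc
Pdia6: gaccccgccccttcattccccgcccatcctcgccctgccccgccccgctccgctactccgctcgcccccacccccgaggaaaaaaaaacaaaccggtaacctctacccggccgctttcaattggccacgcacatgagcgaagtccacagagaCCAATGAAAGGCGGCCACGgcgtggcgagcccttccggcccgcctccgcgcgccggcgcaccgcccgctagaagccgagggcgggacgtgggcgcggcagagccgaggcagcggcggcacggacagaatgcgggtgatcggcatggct
The element was found in 28 of the 17292 windows (0.162%). Of these, 9 belonged to genes that rose (1.41% of 640) and 0 to genes that fell (of 426 windows). Of the 43 ER genes that rose and had a window, 7 held it (16.3%): the 4 shown, the chaperone Calr, the co-chaperone Dnajc3 and the ubiquitin ligase Syvn1. Pdia6, a disulfide isomerase, rose by 0.72 (the authors' deposited table, FDR = 1.88e-05), and values of Derl3, Ero1lb and Creld2 are given with their groups. Among all 136 ER genes with a window, called or not, 11 held it (8.09%). The related element TGACGTGG, searched on both strands, was found in 148 windows of all genes (0.856%), in 9 of the higher genes (1.41%) and in 3 of the lower genes (0.704%). It was in 1 of the 43 ER genes that rose (2.33%) and in 9 of all 136 ER genes (6.62%).

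A Onecut-type word, ATTGANT on either strand, was found in 1474 of the 17292 windows (8.52%), in 35 of the genes that rose (5.47% of 640) and in 33 of the genes that fell (7.75% of 426). Among the 30 digestive genes that rose and had a window, 8 held it (26.7%). These are 6 amylase genes (Amy1, Amy2a2, Amy2a3, Amy2a4, Amy2a5 and Amy2b), the trypsinogen 2210010C04Rik and Ctrl. The amylases are copies of each other, so they are not 6 separate instances. Among all 40 digestive genes with a window, called or not, 8 held the word (20%). A match describes the letters in the window, and binding was not measured.

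Digestive enzyme and granule genes rose in the Oc1 heterozygotes in every enzyme class, though not every member did. Of 54 such genes counted, 40 rose (74.1%, against 3.66% of all genes), 0 fell and 14 were not called. The 45 listed members had a median of 2.73 on the log2 scale, against 0.06 for all listed genes. Genes are listed for any of the 5 comparisons and most passed in this one. A median or summed level over listed members therefore leans toward the Oc1 heterozygotes. Their summed derived level was 94382 CPM (9.44% of reads) in Oc1 heterozygotes, 39811 CPM in Pdx1 heterozygotes, 35573 CPM in double heterozygotes and 24758 CPM (2.48%) in controls. In bulk tissue, more acinar cells and more enzyme RNA per acinar cell cannot be told apart.

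Protease genes rose by large steps, with a median log2 fold change of 3.32 over the 13 listed trypsinogen and inhibitor genes. Of 15 trypsinogen and trypsin inhibitor genes, 12 rose, and of 6 chymotrypsin and elastase genes 5 rose. Try5, a trypsinogen, rose by 4.0 (16-fold; the authors' deposited table, FDR = 1.84e-08), with derived levels of 374 CPM in Oc1 heterozygotes and 23.4 CPM in controls. Prss2, the gene of anionic trypsinogen, rose by 3.26 (the authors' deposited table, FDR = 2.63e-13), at 362 CPM in Oc1 heterozygotes and 37.7 CPM in controls. Spink3, the trypsin inhibitor packed with these zymogens, rose by 1.87 (the authors' deposited table, FDR = 5.61e-11). Trypsinogens are near-identical copies, so how reads were divided among them is uncertain. The elastase Cela2a rose by 3.79 and Cela3b by 3.24 (the authors' deposited table, FDR = 2.42e-08 and 8e-06). Ctrb1, chymotrypsinogen B and among the called genes with the most reads here, rose by 2.12 (the authors' deposited table, FDR = 8.16e-07), with derived levels of 31386 CPM in Oc1 heterozygotes and 7235 CPM in controls.

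All 10 carboxypeptidase, amylase and ribonuclease genes rose, but over a wide range. Cpb1, which trims basic residues from peptides, rose by 4.49 (22.5-fold; the authors' deposited table, FDR = 6.06e-10), at 1120 CPM in Oc1 heterozygotes and 49.9 CPM in controls. Cpa1, also a marker of tip progenitors, rose by 1.0 (the authors' deposited table, FDR = 0.00232), at 9134 CPM in Oc1 heterozygotes and 4568 CPM in controls. Rnase1 rose by 3.65 and the amylase Amy2a5 by 2.79 (the authors' deposited table, FDR = 5.04e-05 and 2.33e-06). Amy2a2, Amy2a3 and Amy2a4 carry the same values as each other, so the counting did not separate them. Each is still counted as a gene here and in all counts of digestive genes, although they are the same measurement. Of 6 lipase genes, 3 rose: colipase (Clps) by 2.20, Pnliprp1 by 2.17 and Cel by 1.92 (the authors' deposited table, FDR = 7.04e-10, 1.13e-08 and 1.31e-08). Pnliprp1 reached 32760 CPM in Oc1 heterozygotes, against 7255 CPM in controls. Pnliprp2 stood at 0.35 (the authors' deposited table, FDR = 0.728), and Pnlip, the main adult lipase, is not listed.

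Of 17 granule and Reg genes, 10 rose and 7 were not called. Dmbt1, a mucin-like granule glycoprotein, rose by 5.36 (41.1-fold; the authors' deposited table, FDR = 1.54e-17), at 16.9 CPM in Oc1 heterozygotes and 0.412 CPM in controls. The granule lectin Zg16 rose by 4.24 and syncollin (Sycn), a granule membrane protein, by 2.67 (the authors' deposited table, FDR = 3.24e-06 and 5.38e-11). Reg1, a secreted lectin, rose by 2.84 (the authors' deposited table, FDR = 1.89e-16). The granule membrane glycoprotein Gp2 stood at 1.34 (FDR = 0.164) and the granule protein Cuzd1 at 0.97 (the authors' deposited table, FDR = 0.588). Both have low levels, with a mean log2 CPM of -0.33 for Gp2 and 1.02 for Cuzd1 over all libraries in the authors' deposited table.

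**Figure D2:**
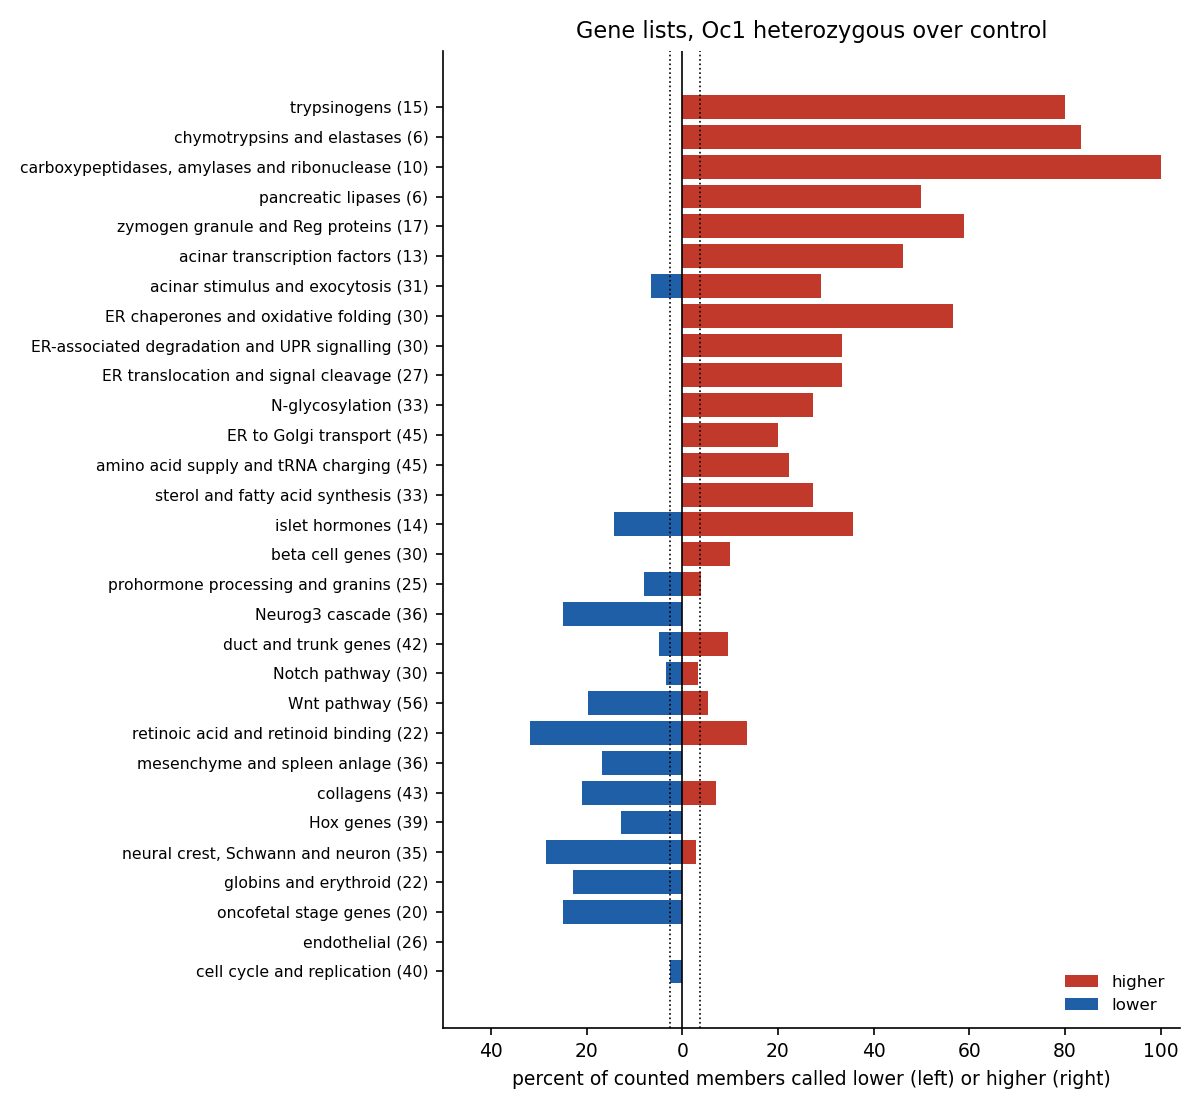
Bars give the percent of each list's counted members (number in brackets) called higher (red, to the right) or lower (blue, to the left) in Oc1 heterozygous over control pancreata. Dotted lines mark the percent of all genes called, 3.66% higher and 2.59% lower. Enzyme and ER lists extend to the right, up to 100% of the carboxypeptidases, amylases and ribonuclease, and Neurog3 cascade, neural crest and retinoid lists extend to the left, up to 31.8%.

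Of 13 factors that maintain acinar identity, 6 rose (46.2%, against 3.66% of all genes), 0 fell and 7 were not called. The median log2 fold change was 0.84 over the 7 listed. Rbpjl, the acinar subunit of PTF1, rose by 1.53 (the authors' deposited table, FDR = 2.33e-07), at 642 CPM in Oc1 heterozygotes, 306 CPM in Pdx1 heterozygotes, 282 CPM in double heterozygotes and 222 CPM in controls. Ptf1a rose by 0.84 (the authors' deposited table, FDR = 0.000203), at 106 CPM in Oc1 heterozygotes, 59.4 CPM in Pdx1 heterozygotes, 59.6 CPM in double heterozygotes and 59 CPM in controls. Bhlha15 rose by 0.92 and Xbp1 by 0.78 (the authors' deposited table, FDR = 2.25e-05 and 3.69e-07). Creb3l4 and Creb3l1, ER-anchored factors that are cleaved to enter the nucleus, rose by 1.07 and 0.64 (the authors' deposited table, FDR = 1.46e-05 and 5.18e-05). Mecom stood at 0.55 with an FDR of 0.000889 (the authors' deposited table), below 1.5-fold. Nr5a2 and Gata4, which also act in acinar cells, are not listed.

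Of 31 genes of acinar stimulation and exocytosis, 9 rose (29.0%, against 3.66% of all genes) and 2 fell (6.45%, against 2.59%). The acetylcholine receptors Chrm3 and Chrm1, which trigger secretion, rose by 1.35 and 1.19 (the authors' deposited table, FDR = 2.04e-07 and 0.000296). Cckar, the cholecystokinin receptor of acinar cells, rose by 0.74 (the authors' deposited table, FDR = 0.00569). The granule GTPases Rab3d, Rab26 and Rab27b rose by 1.34, 1.30 and 1.17 (the authors' deposited table, FDR = 1.73e-08, 3.35e-11 and 5.37e-06). The members that fell were the other cholecystokinin receptor, Cckbr, by 1.65 and the calcium channel Ryr2 by 1.16 (the authors' deposited table, FDR = 0.0086 and 0.00585). Cckbr has a low level, with a mean log2 CPM of -0.93 over all libraries in the authors' deposited table.

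Genes of every stage of a secreted protein's route through the ER were among those that rose. Of 165 genes of ER folding, degradation, entry, glycosylation and export, 54 rose (32.7%, against 3.66% of all genes), 0 fell and 111 were not called. The 55 listed members had a median log2 fold change of 0.83, and their summed derived level was 22306 CPM in Oc1 heterozygotes, 13933 CPM in Pdx1 heterozygotes, 13391 CPM in double heterozygotes and 12352 CPM in controls. Of these 55 listed members 54 were called higher here, so by the listing itself this median and sum lean toward the Oc1 heterozygotes. Members that are not listed are left out of both.

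Among these 5 lists, folding genes had the highest share, with 17 of 30 higher. Pdia2, a protein disulfide isomerase known mainly from pancreas, rose by 2.80 (6.97-fold; the authors' deposited table, FDR = 2.5e-08), at 460 CPM in Oc1 heterozygotes and 66 CPM in controls. The isomerase-like Erp27 rose by 2.08 and the proline isomerase Fkbp11 by 1.77 (the authors' deposited table, FDR = 2.25e-13 and 1.89e-16). Calr, which retains glycoproteins until they are folded, rose by 0.62 (the authors' deposited table, FDR = 0.000448), at 1968 CPM in Oc1 heterozygotes and 1283 CPM in controls. Hyou1, a large ER chaperone, rose by 0.74 and Creld2 by 0.84 (the authors' deposited table, FDR = 6.46e-09 and 3.04e-09). Hspa5, the most general ER chaperone, is not listed.

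In the disposal of misfolded protein 10 of 30 genes rose. Derl3, a channel component, rose by 2.40 (5.29-fold; the authors' deposited table, FDR = 2.91e-15), at 32 CPM in Oc1 heterozygotes and 6.04 CPM in controls. Sel1l, the adaptor of the ubiquitin ligase Syvn1, rose by 1.31 (the authors' deposited table, FDR = 3.09e-10), at 915 CPM in Oc1 heterozygotes and 368 CPM in controls, and Syvn1 by 0.59 (the authors' deposited table, FDR = 1.08e-07). Edem2 and Edem1, which mark misfolded glycoproteins, rose by 1.38 and 1.1 (the authors' deposited table, FDR = 2.52e-08 and 2.78e-05).

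Of 27 genes of entry into the ER, 9 rose, such as the signal peptidase subunit Sec11c by 1.12 and the translocon subunit Sec61b by 0.78 (the authors' deposited table, FDR = 9.97e-08 and 6.59e-07). Of 33 N-glycosylation genes, 9 rose. Gmppb, which makes the GDP-mannose donor, rose by 0.93 and the oligosaccharyltransferase subunits Krtcap2 and Rpn2 by 0.89 and 0.65 (the authors' deposited table, FDR = 6.52e-10, 3.46e-10 and 5.8e-06). Of 45 genes of transport to the Golgi, 9 rose, and the cargo receptors Tmed6 and Tmed3 led them with Sec16b, an organiser of ER exit sites. Tmed6 rose by 1.62, Sec16b by 1.60 and Tmed3 by 1.16 (the authors' deposited table, FDR = 1.71e-11, 4.32e-07 and 2.91e-15).

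Of 45 genes of amino acid supply and tRNA charging, 10 rose (22.2%, against 3.66% of all genes), 0 fell and 35 were not called. They include the zinc transporter Slc39a5 at 2.19, Gnmt and Gatm, which act in glycine and creatine metabolism, at 2.02 and 1.71, Cbs of the transsulfuration pathway at 1.43, and Pycr1 of proline synthesis at 1.32 (the authors' deposited table, FDR = 5.84e-08, 1.81e-07, 9.5e-11, 1.16e-09 and 1.89e-16). Of 33 sterol and fatty acid genes, 9 rose (27.3%), 0 fell and 24 were not called. The feedback regulator Insig1 rose by 1.44, the sterol factor Srebf1 by 0.83 and the desaturase Scd2 by 0.90 (the authors' deposited table, FDR = 3.45e-16, 9.72e-13 and 7.01e-08).

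Outside the lists, 2 water channels had the largest rises among genes whose mean log2 CPM was 1 or more. Aqp8 rose by 3.10 (8.58-fold) and Aqp12, known from acinar cells, by 3.06 (the authors' deposited table, FDR = 1.03e-06 and 2.79e-05). Upk1a, a uroplakin, rose by 2.52, Tdh, a threonine dehydrogenase, by 2.48, the phospholipase Liph by 2.24, the growth factor Bmp3 by 2.23 and Ass1, of arginine synthesis, by 2.19 (the authors' deposited table, FDR = 5.15e-08, 3.13e-05, 7.37e-13, 2.67e-07 and 1.87e-07). Tdh and Psd2 stood at -0.21 and -0.55 in the Pdx1 heterozygotes over the same controls, where neither was called (the authors' deposited table, FDR = 1 and 0.889). Psd2, an Arf exchange factor, rose by 2.0 in the Oc1 heterozygotes (the authors' deposited table, FDR = 4.93e-09).

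In the Neurog3 cascade, the list of endocrine commitment, 0 of 36 genes rose, 9 fell (25%, against 2.59% of all genes) and 27 were not called. Neurog3 itself, which commits trunk cells to the endocrine lineage, fell by 0.65 (the authors' deposited table, FDR = 0.00269), at 90.5 CPM in Oc1 heterozygotes, 114 CPM in Pdx1 heterozygotes, 84.5 CPM in double heterozygotes and 142 CPM in controls. Pax4, which acts next in the beta and delta lineages, fell by 0.93 (the authors' deposited table, FDR = 0.000787). The progenitor factors Sox11 and Sox4 fell by 0.98 and 0.91 (the authors' deposited table, FDR = 9.6e-07 and 1.1e-08), and Gadd45a fell by 0.72 (the authors' deposited table, FDR = 0.000909). Lmx1b and Neurod2, further factors of the list, fell by 1.01 and 0.64 (the authors' deposited table, FDR = 0.0172 and 0.0337). Other factors were not called: Insm1 stood at -0.41, Neurod1 at -0.23 and Pax6 at -0.20 (the authors' deposited table, FDR = 0.179, 0.251 and 0.346), while Nkx2-2 is not listed.

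Of 14 islet hormone genes, 5 rose (35.7%, against 3.66% of all genes), 2 fell (14.3%, against 2.59%) and 7 were not called. The insulin genes Ins1 and Ins2 rose by 0.93 and 0.90 (the authors' deposited table, FDR = 0.00192 and 0.000556). Ins1 was at 273 CPM in Oc1 heterozygotes, 102 CPM in Pdx1 heterozygotes, 28 CPM in double heterozygotes and 143 CPM in controls. Iapp, co-secreted with insulin, rose by 0.72, somatostatin (Sst) by 1.01 and pancreatic polypeptide (Ppy) by 0.97 (the authors' deposited table, FDR = 0.0108, 0.00245 and 0.000367). Glucagon (Gcg) stood at 0.04 and ghrelin (Ghrl) at -0.08 (the authors' deposited table, FDR = 1 and 0.962). Pyy stood at 0.57 (FDR = 0.00836), just below 1.5-fold, in the authors' deposited table. The members that fell were Cck, at -1.01, and Nts, at -2.20 (the authors' deposited table, FDR = 0.0196 and 0.0423), and Nts is near the lower limit of expression. Cck also counts among the Neurog3 cascade genes that fell.

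Beta cell and granule genes outside the hormones mostly did not pass. Of 30 beta cell genes, 3 rose (10%, against 3.66% of all genes) and 0 fell. Those that rose were the oxidase Ero1lb at 0.92, the granule zinc transporter Slc30a8 at 0.76 and G6pc2, an islet glucose-6-phosphatase, at 0.73 (the authors' deposited table, FDR = 0.0161, 0.0307 and 0.0141). Ero1lb also counts among the folding genes. Mafa, an activator of insulin transcription, stood at 0.35 and Slc2a2, the glucose transporter, at 0.11 (the authors' deposited table, FDR = 0.521 and 0.893). Of 25 prohormone processing and granin genes, 1 rose (4%, against 3.66% of all genes) and 2 fell (8%, against 2.59%). Scg2 rose by 0.71, whereas Scg5, the chaperone of the convertase Pcsk2, fell by 1.18 and Chgb by 0.82 (the authors' deposited table, FDR = 0.00084, 0.00273 and 5.33e-05). Chga stood at 0.09 (the authors' deposited table, FDR = 0.961).

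Of 42 duct and trunk genes, 4 rose (9.52%, against 3.66% of all genes), 2 fell (4.76%, against 2.59%) and 36 were not called. Anxa13, an apical annexin, rose by 1.81, Hnf4g by 0.95, keratin Krt18 by 0.93 and claudin Cldn3 by 0.61 (the authors' deposited table, FDR = 3.94e-08, 0.00719, 2.25e-13 and 6.84e-07). Ambp, a secreted proteinase inhibitor, fell by 0.73 and the potassium channel Kcnk3 by 0.68 (the authors' deposited table, FDR = 0.000361 and 0.000674). Ambp also counts among the liver genes. The trunk and duct factors Sox9, Prox1 and Glis3 and the duct genes Krt19, Spp1, Cftr and Pkhd1 are not listed. Bicc1, linked to cystic ducts, stood at -0.30 (the authors' deposited table, FDR = 0.026), below 1.5-fold.

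**Figure D3:**
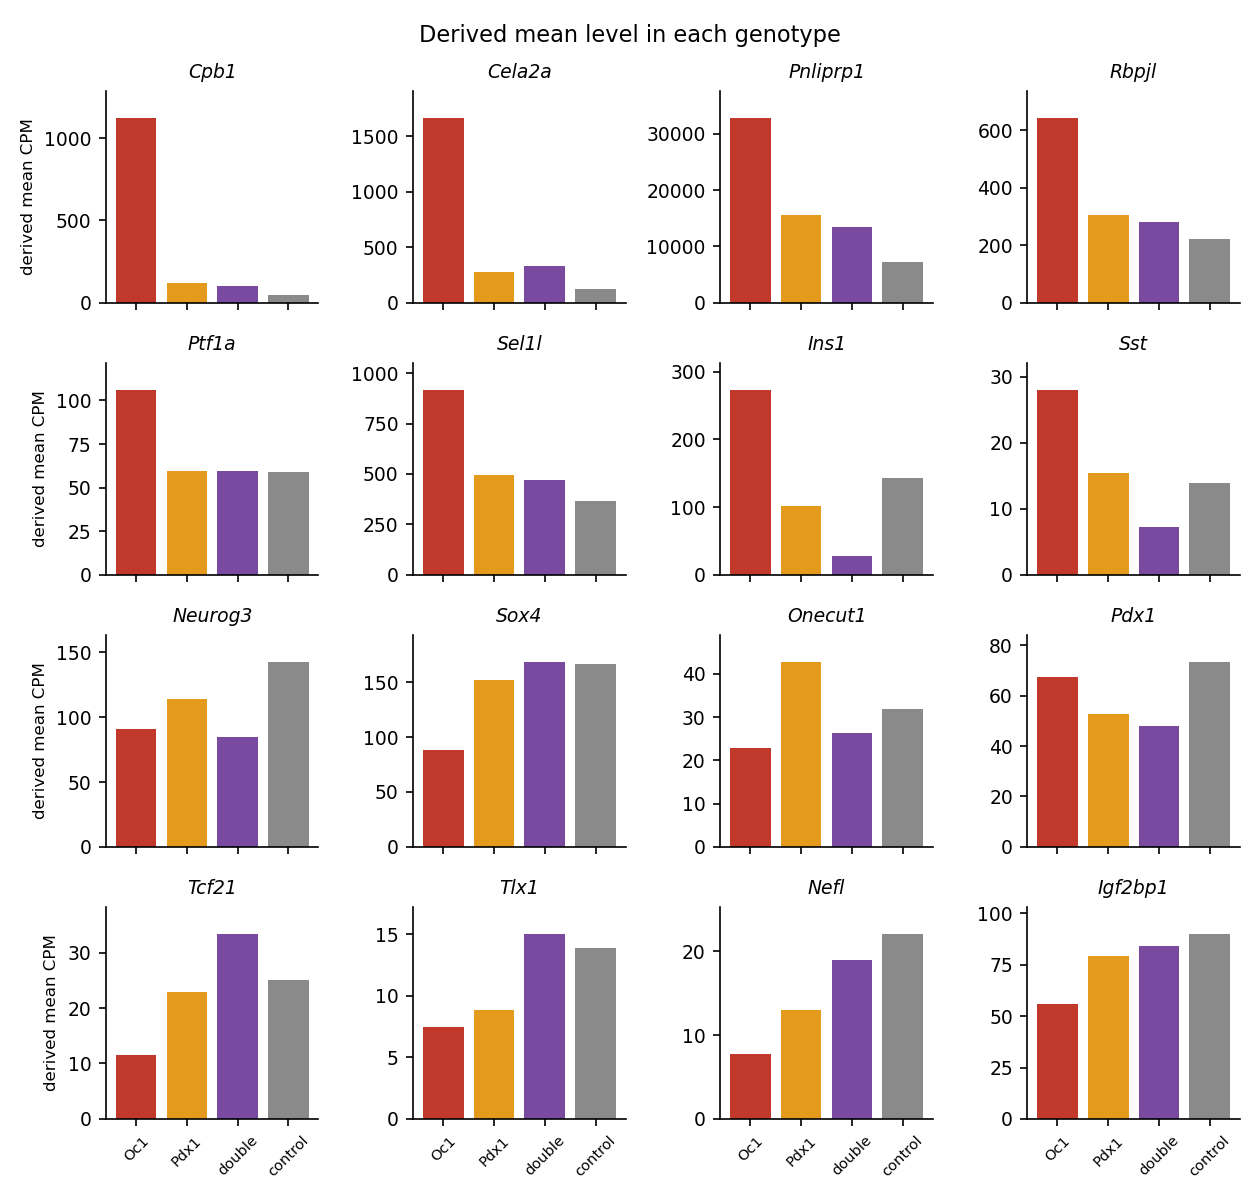
Bars give the derived mean level in CPM of 16 named genes in Oc1 heterozygous, Pdx1 heterozygous, double heterozygous and control pancreata, each panel on its own axis starting at 0. Levels are derived from the authors' deposited table and have no error bars. The Oc1 heterozygous bar is the highest for Cpb1, Cela2a, Pnliprp1, Rbpjl, Ptf1a, Sel1l, Ins1 and Sst. It is below the control bar for Neurog3, Sox4, Onecut1, Pdx1, Tcf21, Tlx1, Nefl and Igf2bp1.

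Signalling genes were called in both directions. In the Notch list 1 of 30 genes rose (3.33%, against 3.66% of all genes), 1 fell (3.33%, against 2.59%) and 28 were not called. Both shares lay near those of all genes. Lfng, which modifies Notch receptors, was at 0.79 and the target Hey2 at -1.23 (the authors' deposited table, FDR = 4.07e-07 and 6.59e-05). Of 56 Wnt pathway genes, 11 fell (19.6%, against 2.59% of all genes), 3 rose (5.36%, against 3.66%) and 42 were not called. Receptors were on both sides. Fzd10 and Fzd7 fell by 1.40 and 0.79 (the authors' deposited table, FDR = 0.0088 and 3.1e-08), and Fzd5 rose by 0.60 (the authors' deposited table, FDR = 1.03e-05). Lef1 and Axin2, which respond to Wnt, fell by 1.38 and 0.75, and Sfrp1, a secreted antagonist, by 0.77 (the authors' deposited table, FDR = 0.00918, 2.1e-06 and 5.16e-08). Sostdc1, an antagonist of Wnt and BMP signals, rose by 2.60 (6.04-fold; the authors' deposited table, FDR = 2.1e-11).

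Of 22 retinoid genes, 7 fell (31.8%, against 2.59% of all genes) and 3 rose (13.6%, against 3.66%). Rdh10, which makes retinaldehyde, fell by 0.98, and the binding proteins Crabp2 and Crabp1 fell by 1.1 and 0.80 (the authors' deposited table, FDR = 3.57e-06, 0.0231 and 0.000164). Cyp26b1, which degrades retinoic acid, fell by 1.09 (the authors' deposited table, FDR = 0.00524). Aldh1a1 and the near copy Aldh1a7, aldehyde dehydrogenases, rose by 1.52 and 1.27, and Rbp2 rose by 1.44 (the authors' deposited table, FDR = 3.14e-08, 8.75e-07 and 1.46e-05). Of 40 hedgehog, FGF and BMP genes, 5 fell (12.5%), 1 rose (2.5%) and 34 were not called. The epithelial receptor Fgfr2 fell by 0.64, the ligand Fgf9 by 0.96 and Bmp5 by 0.85, while Fgf7, a ligand of Fgfr2, rose by 1.44 (the authors' deposited table, FDR = 0.000162, 0.000232, 0.00505 and 0.00823). Fgf7 has a low level, with a mean log2 CPM of -0.48 over all libraries in the authors' deposited table.

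The dissected tissue also holds other cell types. Of 36 mesenchyme and spleen genes, 0 rose, 6 fell (16.7%, against 2.59% of all genes) and 30 were not called. The spleen factors Nkx2-5, Nkx3-2 and Tlx1 fell by 1.98, 1.67 and 0.90 (the authors' deposited table, FDR = 0.0362, 5.34e-06 and 0.0464), and all 3 fixed markers of the spleen anlage are among these. Nkx2-5 has a low level, with a mean log2 CPM of 0.78 over all libraries in the authors' deposited table. Tcf21 of the mesenchyme fell by 1.11 and Pdgfra by 0.61 (the authors' deposited table, FDR = 1.68e-06 and 0.00118), while Col1a1 and Col3a1, its main collagens, are not listed. Of 35 nerve genes 10 fell (28.6%), 1 rose (2.86%, against 3.66% of all genes) and 24 were not called. Nefl, a neurofilament, fell by 1.5 and Fabp7 of Schwann cell precursors by 1.22 (the authors' deposited table, FDR = 0.00293 and 6.6e-05). The one that rose was Ret, a receptor of neural crest that other cells also make, at 0.96 (the authors' deposited table, FDR = 1.93e-05). The Schwann marker Sox10 stood at -0.47 (the authors' deposited table, FDR = 0.172).

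The summed derived level of the listed mesenchyme and spleen genes was 157 CPM in Oc1 heterozygotes and 254 CPM in controls, and that of the listed globin and erythroid genes was 269 CPM in Oc1 heterozygotes and 603 CPM in controls. The same sum was 388 CPM in Oc1 heterozygotes and 389 CPM in controls for nerve genes, 149 CPM in Oc1 heterozygotes and 49.6 CPM in controls for macrophage genes, 5442 CPM in Oc1 heterozygotes and 3162 CPM in controls for liver genes, and 553 CPM in Oc1 heterozygotes and 308 CPM in controls for stomach and intestine genes. In Oc1 heterozygotes 1 gene made up most of each of these sums. These genes were Ret at 228 CPM (117 CPM in controls), C1qa at 146 CPM (40.5 CPM), Serpina6 at 4690 CPM (2311 CPM) and Anpep at 456 CPM (250 CPM). Likewise Tfrc held 196 CPM of the globin and erythroid sum (343 CPM in controls). Of the 18 listed nerve genes 17 were below control, as were 10 of 15 liver, 3 of 4 macrophage and 9 of 20 stomach and intestine genes. Of 22 globin and erythroid genes, 5 fell (22.7%, against 2.59% of all genes), led by the embryonic globin Hbb-y at -2.26 (the authors' deposited table, FDR = 0.000495), and Hba-a1 is not listed. Of 26 endothelial genes and 48 proteasome genes, 0 were called. Of 34 macrophage genes 1 was called (2.94% higher, against 3.66% of all genes). It was C1qa, which rose by 1.85 (the authors' deposited table, FDR = 1.43e-14), while its partners C1qb and C1qc and the receptor Csf1r are not listed. Of 26 liver genes 3 rose (11.5%) and 1 fell (3.85%). Alb stood at -1.23 and Apoa1 at -0.35 (the authors' deposited table, FDR = 0.209 and 0.781), and Serpina6 rose by 1.02 (the authors' deposited table, FDR = 0.00917). Of 31 stomach and intestine genes 6 rose (19.4%) and 2 fell (6.45%). Among them Cldn18, a stomach claudin, rose by 2.05, and Cym and Ctse, gastric proteases, fell by 1.57 and 1.52 (the authors' deposited table, FDR = 3.75e-06, 0.0016 and 5.98e-05). The part of these cells in the results above was not tested.

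By their summed derived levels, the 45 listed digestive genes took 9.44% of reads in Oc1 heterozygotes and 2.48% in controls. Rescaling the fold changes to equal totals outside these genes moves each one up by 0.11 on the log2 scale. This takes the deposited fold changes as scaled by library totals. How the authors scaled the libraries is not known here. If their scaling already allowed for the enzyme reads, the shift would correct for them again. Rescaled, 851 genes were higher and 441 lower, so 65.9% of calls were higher, against 58.5% as deposited. The count of higher genes is then a lower bound, since genes between the limits are not listed. The Neurog3 cascade had 6 lower genes in place of 9, the mesenchyme and spleen list 4 in place of 6, the Wnt list 8 in place of 11 and the nerve list 9 in place of 10. Neurog3 itself then lay below 1.5-fold. At an unadjusted edgeR p under 0.05, 0 listed digestive or ER genes were lower, 0 listed Neurog3 cascade, mesenchyme or spleen genes were higher, and 1 endothelial and 2 smooth muscle genes were lower.

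A direct comparison with the Pdx1 heterozygotes, which uses no control library, asks which changes differ between the single heterozygotes. It shares the Oc1 heterozygous libraries with the comparison above, so the values are set side by side and are not independent. Over Pdx1 heterozygotes, 562 genes were higher (2.46%) and 504 lower (2.2%) in Oc1 heterozygotes, by counts from the authors' deposited table. Of the 54 digestive genes, 34 were higher and 0 lower. Of the 165 ER genes, 29 were higher and 0 lower. Cpb1 stood 3.21 above the Pdx1 heterozygotes, Pdia2 2.21, Rbpjl 1.07 and Ptf1a 0.83 (the authors' deposited table, FDR = 1.26e-05, 2.44e-05, 0.00091 and 0.00039). Amy2b, at 0.07 (the authors' deposited table, FDR = 1), was an exception among the enzymes, with derived levels of 510 CPM in Oc1 heterozygotes and 484 CPM in Pdx1 heterozygotes.

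Several endocrine genes also differed between the single heterozygotes. Ins1 and Ins2 were both 1.42 higher in the Oc1 than in the Pdx1 heterozygotes, and Iapp 1.32 higher (the authors' deposited table, FDR = 8.68e-07, 1.95e-08 and 4.49e-07). Pax4 and Sox4 were 0.94 and 0.78 lower (the authors' deposited table, FDR = 0.001 and 3.05e-06). Neurog3 stood at -0.33 between them (the authors' deposited table, FDR = 0.243). Of 21 smooth muscle genes, 8 were lower in the Oc1 than in the Pdx1 heterozygotes and 0 were called against control. Myh11, a smooth muscle myosin, stood at -3.22 against the Pdx1 heterozygotes and -1.0 against control (the authors' deposited table, FDR = 0.000177 and 0.34). Of 39 Hox genes, 13 were lower than in Pdx1 heterozygotes and 5 lower than in controls (12.8%, against 2.59% of all genes). Of all genes, 2.2% were lower than in Pdx1 heterozygotes. Some of the 13 have a low mean log2 CPM over all libraries, such as Hoxb13 at -0.32 and Hoxd10 at -2.29. Others do not, such as Hoxb3 at 4.67 (all 3 from the authors' deposited table). Several genes that are lower in this comparison stand high in the Pdx1 heterozygotes alone. Myh11 was at 2.98 CPM in Oc1 heterozygotes, 27.7 CPM in Pdx1 heterozygotes and 5.96 CPM in controls. Hoxd13, a Hox gene of posterior tissues, was at 0.0067 CPM in Oc1 heterozygotes, 3.56 CPM in Pdx1 heterozygotes and 0.0232 CPM in controls. The double heterozygotes had the same 0.0067 CPM, and a level that small stands for almost no reads. The gut lectin Lgals4 was at 2.04 CPM in Oc1 heterozygotes, 22.3 CPM in Pdx1 heterozygotes and 1.95 CPM in controls, and stood at -3.45 between the single heterozygotes (the authors' deposited table, FDR = 0.00291). The part of other tissue in these differences was not tested.

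**Figure D4:**
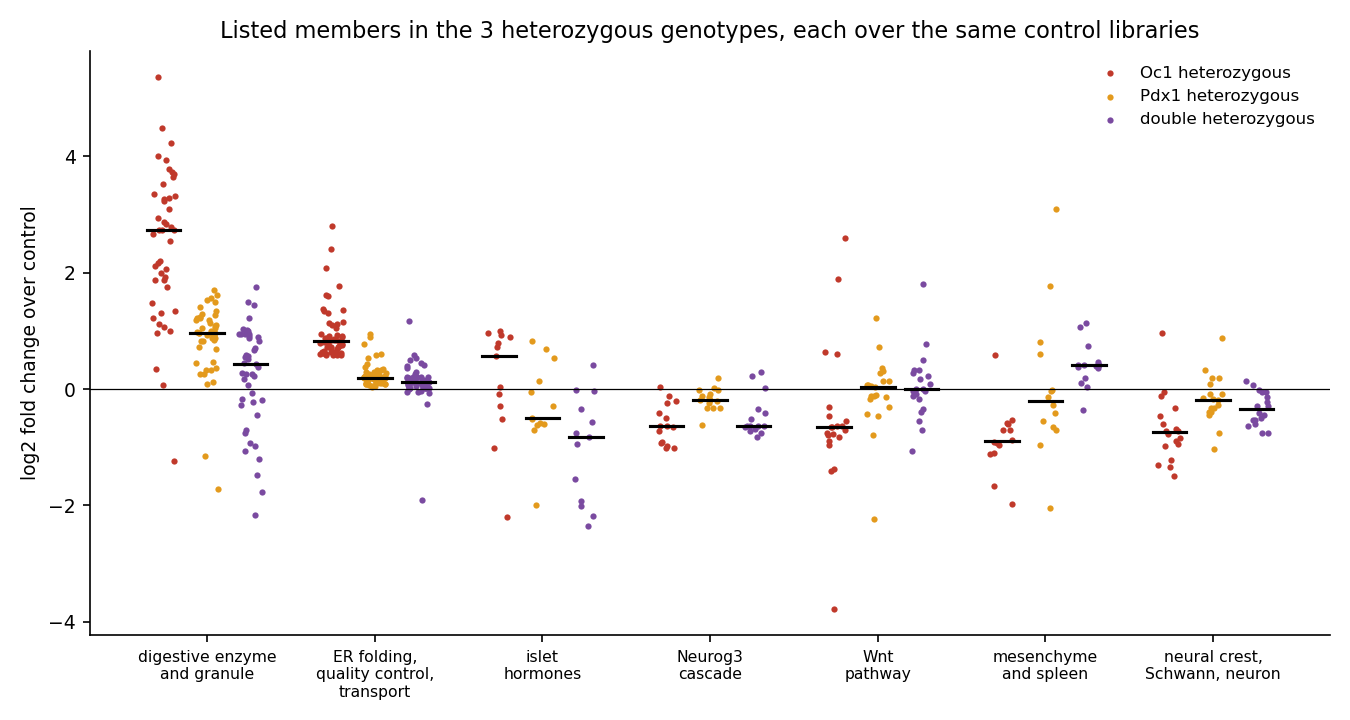
Points are listed members of 7 gene groups, each with its log2 fold change over the same control libraries in Oc1 heterozygotes (red), Pdx1 heterozygotes (orange) and double heterozygotes (purple), from the authors' deposited table, and black lines are medians. In the digestive group the median is 2.73 in Oc1, 0.96 in Pdx1 and 0.43 in double heterozygotes, and in the islet hormone group it is 0.57, -0.50 and -0.83. Most listed genes were listed through the Oc1 comparison, which favours larger values there.

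The double heterozygotes carry the same Oc1 allele, yet their enzyme values over the shared controls were smaller. Of the 54 digestive genes, 40 rose in Oc1 heterozygotes, 2 in Pdx1 heterozygotes and 1 in double heterozygotes, where 1 also fell. The 1 that fell was Itih4, at -2.16 (the authors' deposited table, FDR = 0.0396), with a mean log2 CPM of -0.91. Shares of all genes called over control in Pdx1 and double heterozygotes are not given here, so these counts have no overall rate beside them. Among the enzymes, Cela2a was at 1660 CPM in Oc1 heterozygotes, 281 CPM in Pdx1 heterozygotes, 329 CPM in double heterozygotes and 120 CPM in controls. Reg1 was an exception that rose in all 3, by 2.84, 1.62 and 1.75 (the authors' deposited table, FDR = 1.89e-16, 9.56e-05 and 3.59e-07). The difference between Oc1 and double heterozygotes was not tested.

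Near the mutated gene, on chromosome 9, 7 of the 50 nearest counted genes were called (14%, against 6.24% of all genes). Of these 4 rose, Wdr72 by 1.42, the lipase Lipc by 1.05, Ccpg1 by 0.73 and Tinag by 0.64 in the authors' deposited table. The other 3 fell: Bmp5 by 0.85, Prtg by 0.72 and Mns1 by 0.62 in the authors' deposited table. These neighbours were named after their values were seen.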

How the data were processed

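RNA of 16 mouse pancreata was sequenced; per the labels' protocols, pancreata went into Trizol and a TruSeq kit made the libraries. The submitters' processing notes name build mm9, edgeR and CASAVA 1.8.2; the aligner and the edgeR version are not given in the sources used here. The deposited table of read counts names its 16 columns by flow cell, lane and index, and since no label ties them to samples these 16 columns were not used. Which of the 2 flow cells in those names held which sample was not analysed here. Only its 22869 gene symbols were read. Depth per library, values per library and any refit were therefore not analysed here, and the count model planned for that case was replaced by the authors' own test.

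Per the file headers, the authors' comparison table holds 5 comparisons, each with its log2 fold change and log2 CPM (a mean over libraries), its p-value and the false discovery rate (FDR), an adjusted p. It lists 2283 genes. The mean log2 CPM was the same in all 5 comparisons. The fold changes under the heading for double against Oc1 matched the Pdx1 fold change less the Oc1 fold change in 2279 of 2279 rows (tolerance 1e-06); with the sign turned they served as Oc1 over Pdx1 heterozygotes. In 8 rows a shift of values by 1 column was undone, and 3 rows with a number for a symbol were counted but not named. Of genes listed only through the Oc1 comparison the smallest change was 1.5007-fold, so calls at FDR under 0.05 and 1.5-fold are complete.

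From these, list counts, derived levels and promoter words were computed with python 3.11.15, pandas 2.3.3 and numpy 2.4.6, and the counting and level formulas were tested on simulated data. The 46 gene lists, the members and the tests were chosen with earlier results of these data known. Of each list, up to 6 called members per direction could be named, with mean log2 CPM of 1 or more ahead of others, with uncalled members of the acinar, ER, endocrine, duct and mesenchyme lists; outside the lists, names came from the 15 highest and 15 lowest called genes. Other names, such as Cckar, Axin2, Spink3, Prss2, Cpa1, Amy2b, Calr, Hyou1, Creld2, Syvn1, Neurog3 and the unlisted genes, were chosen after their values were seen. Values of a few list members are not reported here. Promoter windows and chromosomes are RefSeq's, of GRCm38.p6. The alternatives were other p and fold limits, a minimum level, autosomes only, Bonferroni adjustment and a rescaling.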

Additional observations from a re-analysis of the deposited data

How the results depend on the processing

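Against control, 836 genes were higher and 592 lower. At adjusted p under 0.01 the lower genes numbered 388. At 2-fold, 379 were higher and 222 lower, and with Bonferroni adjustment 447 and 144. Over Pdx1 heterozygotes, the 504 lower genes became 293 at adjusted p under 0.01, and at 2-fold 240 were higher and 222 lower. Of members of the lists, 202 were higher and 107 lower, and at 2-fold 105 and 42. By adjusted p alone at least 3462 genes passed against control (15.1%) and at least 2556 over Pdx1 heterozygotes. The rescaling was chosen after seeing the data. Of 339 called list members and other named genes, 287 were still called at adjusted p under 0.01, 177 at 2-fold, 194 with Bonferroni adjustment and 317 after rescaling. None of these alternatives could turn the sign of a called gene. Of 576 counts per list and alternative, 507 stayed within 1.5 times the count given and 69 did not. A count of 0 can only stay at 0 under a stricter limit, a minimum level or autosomes only. Part of the 507 was therefore fixed in advance. No paired analysis was possible because the count columns carry no replicate numbers or sample names. For that reason the planned fits without each replicate, with DESeq2, with no filter on low counts and with controls of the same flow cell were not run. Whether any call rests on 1 library is therefore unknown.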

Other observations

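Of 20 genes of early embryonic stages, 5 fell (25%, against 2.59% of all genes), 0 rose and 15 were not called, and after the rescaling 3 were lower. Lin28b, an inhibitor of let-7 maturation, fell by 1.0, the chromatin protein Hmga2 by 0.78 and the RNA-binding protein Igf2bp1 by 0.69 (the authors' deposited table, FDR = 0.00182, 5.34e-08 and 1.14e-05). Of 40 cell cycle genes 0 rose and 1 fell (2.5%, against 2.59% of all genes), Cdk6, by 0.76 (the authors' deposited table, FDR = 0.000183). Of 29 immediate early genes 0 rose and 2 fell (6.9%), both heat shock genes, Hspa1b by 0.97 and Hspa1a by 0.72 (the authors' deposited table, FDR = 0.00158 and 0.036). Of 28 hypoxia genes 3 rose (10.7%, against 3.66% of all genes), Egln3 by 1.55, Car9 by 1.12 and Ndrg1 by 0.99 (the authors' deposited table, FDR = 6.28e-07, 5.79e-08 and 6.62e-06).

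Of 43 collagen genes 9 fell (20.9%, against 2.59% of all genes) and 3 rose (6.98%, against 3.66%). Col11a2 fell by 1.31, Col2a1 by 1.25 and Col9a1 by 1.14 (the authors' deposited table, FDR = 5.49e-08, 9e-07 and 1.11e-06), while Col11a1 stood at 0.12 and Col9a3 at -0.49 and were not called (the authors' deposited table, FDR = 0.825 and 0.00907). Col19a1 rose by 1.12 in Oc1 heterozygotes and fell by 2.17 in Pdx1 heterozygotes and 2.19 in double heterozygotes (the authors' deposited table, FDR = 0.0239, 0.000285 and 1.07e-05). Over Pdx1 heterozygotes it was 3.29 higher in Oc1 heterozygotes (the authors' deposited table, FDR = 1.3e-11). Of 36 other matrix genes 4 fell (11.1%), among them Nepn by 1.29 and Fbln5 by 0.73 (the authors' deposited table, FDR = 0.000443 and 0.000206). Of 68 histone genes 7 rose (10.3%) and 0 fell, with the linker histones Hist1h1d and Hist1h1c at 1.63 and 1.49 (the authors' deposited table, FDR = 5.8e-07 and 3.3e-11). Of 334 solute carriers, 27 rose (8.08%, against 3.66% of all genes) and 11 fell (3.29%, against 2.59%). Of 77 ribosomal protein genes 3 rose (3.9%) and 1 fell (1.3%). Of 10 sex-linked transcripts 1 rose (10%) and 2 fell (20%), and of 11 mesothelium genes 1 fell (9.09%), Wt1, by 0.59 (the authors' deposited table, FDR = 0.00366). Of 103 small nucleolar RNAs 1 fell (0.971%), and of 604 microRNA genes 2 rose (0.331%) and 4 fell (0.662%).

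At the low end outside the lists, Crp, an acute phase protein of liver, fell by 2.62, Cxcl13, a lymphoid chemokine, by 1.83 and Ahcy, a methylation cycle enzyme, by 1.64 (the authors' deposited table, FDR = 1.16e-09, 0.000724 and 0.000958). Cwc22, a splicing factor, fell by 1.67 over control and stood 2.07 below the Pdx1 heterozygotes (the authors' deposited table, FDR = 3.69e-07 and 7.34e-10). The opioid receptor Oprd1 fell in all 3 heterozygous genotypes, by 1.57 in Oc1, 1.37 in Pdx1 and 1.43 in double heterozygotes over the shared controls (the authors' deposited table, FDR = 7.4e-07, 0.000141 and 8.51e-07). Of 31 gut genes, Agr2, a disulfide isomerase of mucous cells, likewise rose in all 3, by 2.71, 2.31 and 1.66 (the authors' deposited table, FDR = 6.02e-06, 0.00315 and 0.0409).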
